A study of Mus musculus with 6 samples.

Results

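Skeletal muscle holds a set of enzymes and carriers that keep ATP and oxygen steady when demand and supply do not match, and 9 genes of that set were followed in ischemic muscle of WT and GPR174-KO mice. The 9 were taken by name, as the creatine kinase, creatine supply, adenylate kinase, AMP deaminase and myoglobin genes Ckm, Ckmt2, Ckb, Gatm, Slc6a8, Ak1, Ampd1, Ampd3 and Mb, out of 18089 genes in the table. Earlier results of these data were known when they were chosen, so the choice was not blind to their values. All 9 passed the filter on low counts. RNA came from the gastrocnemius, a calf muscle, of male C57BL/6 mice aged 8 to 10 weeks by the methods, on day 7 after hindlimb ischemia (HLI), in which the femoral artery is ligated at a pair of sites and the segment between is removed. The groups were 3 WT mice and 3 GPR174-KO mice (Gpr174-/Y). GPR174 is an X-linked G protein-coupled receptor of lymphocytes, and the knockout is global, so every cell type of these mice lacks it. Muscles without ischemia were not analysed here, and all 6 libraries share the surgery, the strain, the sex and the day.

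Creatine kinase moves a phosphate group between ATP and creatine, and phosphocreatine is the fastest reserve of ATP in a contracting fibre. The muscle-type enzyme (Ckm) works in the cytosol and on the myofibrils, the sarcomeric mitochondrial enzyme (Ckmt2) loads creatine at the mitochondria, and the brain-type enzyme (Ckb) is the cytosolic form of many non-muscle cells and of muscle precursors before they mature. Creatine is made by Gatm and Gamt and enters fibres through the transporter Slc6a8. When ADP builds up, adenylate kinase (Ak1) turns it into ATP and AMP, and AMP deaminase (Ampd1 in muscle, Ampd3 first known from red blood cells) removes the AMP. Myoglobin (Mb) binds oxygen inside fibres, most of all in oxidative ones.

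To show the DNA in front of the genes that moved apart within the creatine pathway, the 250 bases before the transcription start are given for Ckm and Ckmt2, which fell, and for Ckb and Gatm, which rose. The sequences are from RefSeq on GRCm38.p6, written 5′ to 3′ on the strand of the gene, with the last base next to the start. Capitals mark matches to CANNTG, the E-box core read by myogenic factors, and in Ckb the match to the MEF2 pattern, which contains TATAAA.
Ckm, chr7:19410844-19411093, plus strand: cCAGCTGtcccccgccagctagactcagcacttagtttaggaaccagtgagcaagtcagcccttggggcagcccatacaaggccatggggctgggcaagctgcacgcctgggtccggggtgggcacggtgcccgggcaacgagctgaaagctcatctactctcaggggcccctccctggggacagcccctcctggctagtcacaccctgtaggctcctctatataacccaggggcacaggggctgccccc
Ckmt2, chr13:91876886-91877135, minus strand: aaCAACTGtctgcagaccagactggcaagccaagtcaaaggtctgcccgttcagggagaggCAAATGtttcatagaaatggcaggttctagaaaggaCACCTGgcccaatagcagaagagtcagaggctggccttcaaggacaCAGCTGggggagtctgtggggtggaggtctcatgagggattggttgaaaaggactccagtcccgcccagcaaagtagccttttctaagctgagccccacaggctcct
Ckb, chr12:111672339-111672588, minus strand: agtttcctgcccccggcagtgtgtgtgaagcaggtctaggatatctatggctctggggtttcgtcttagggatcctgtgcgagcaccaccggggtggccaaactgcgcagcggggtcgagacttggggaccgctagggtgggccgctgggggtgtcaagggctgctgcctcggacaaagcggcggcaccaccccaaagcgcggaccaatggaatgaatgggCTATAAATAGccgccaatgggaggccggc
Gatm, chr2:122611278-122611527, minus strand: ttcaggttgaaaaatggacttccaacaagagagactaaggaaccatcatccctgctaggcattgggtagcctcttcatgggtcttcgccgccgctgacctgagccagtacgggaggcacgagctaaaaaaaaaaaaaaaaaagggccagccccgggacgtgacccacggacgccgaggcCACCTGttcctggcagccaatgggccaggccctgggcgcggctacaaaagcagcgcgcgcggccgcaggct
CANNTG, which reads the same on both strands, was found once in the Ckm window, at position -249, and once in the Gatm window, at position -71. The Ckmt2 window held 4 matches, and the Ckb window held none. Of all 32851 windows of this length, 66.2% held CANNTG, so its presence does not set these genes apart. TATAAA on either strand stood in 12.4% of windows, and in Ckb it began at position -28. The MEF2 pattern stood in 0.508% of windows, and the CArG pattern, the binding pattern of serum response factor, in 1.47%, with no match to the latter in the 4 windows shown. No binding was measured here, and a match of letters is not a bound site. Windows were given for 7 of the 9 genes, with none for Ampd1 and Slc6a8.

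Each value below is an estimated read count, summed over the transcripts of a gene and given as CPM, its share of all reads on a fixed scale, after TMM scaling, which sets the libraries to a common level over most genes. The libraries held similar depth, with 18417111 to 18695034 counts each in WT and 19173066 to 19394504 in GPR174-KO. The targeted gene Gpr174 gave 8, 2 and 5 counts in WT and 1, 0 and 0 in GPR174-KO, and it was too low to test, with 3 counts taken as the smallest detectable number. The labelled tissue was clear in every library, since 24 mature muscle fibre markers, none of them among the 9 genes, summed to between 165050 and 230380 CPM in WT and between 73884 and 83142 CPM in GPR174-KO. All 24 fell in GPR174-KO, with a median log2 fold change of -1.42, and none was at 0. These markers took 20.1%, 18.4% and 15.7% of the reads of WT replicates 1, 2 and 3, and 8.97%, 8.70% and 8.28% of those of GPR174-KO replicates 1, 2 and 3. In bulk RNA, fewer fibres and less RNA per fibre cannot be told apart. Among 3859 genes with a mean of at least 50 CPM, the middle value belonged to replicate 2 for 85.9% in WT and for 76.6% in GPR174-KO, so counts of calls are also given from replicates 1 and 3 alone. Whether replicate 2 of each group is independent of the others could not be settled from these data, and the SDs, standard errors and p-values at n = 3 assume that it is. WT replicate 3 was the WT library nearest to the GPR174-KO libraries in its share of fibre markers.

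Of the 9 genes, 5 were lower in GPR174-KO muscle (Ckm, Ckmt2, Ak1, Ampd1 and Mb), 2 were higher (Ckb and Gatm), and Slc6a8 and Ampd3 did not pass the test. The test was edgeR's quasi-likelihood test with Benjamini-Hochberg adjustment over 14395 genes, with an adjusted p of 0.05 as threshold. With TMM scaling, the same 7 genes also passed an absolute log2 fold change of 1. Across the table, 54.6% of genes passed the test, 27.6% lower and 27.0% higher, and passing both thresholds was less common, at 4.84% lower and 3.45% higher. The median log2 fold change of the 9 genes was -1.16, against 0.004 over all genes tested. WT and GPR174-KO values did not overlap for 8 of the 9 genes, where 65.6% of all genes did not overlap. With replicates 1 and 3 alone edgeR called none of the 9 genes, while 7 had an unadjusted p under 0.05, and no gene of the whole table passed, against 5026 at an unadjusted p under 0.05. In that comparison the log2 fold changes of the 7 genes ranged from -2.03 to 1.16 and their adjusted p from 0.0542 to 0.0755.

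**Figure D1:**
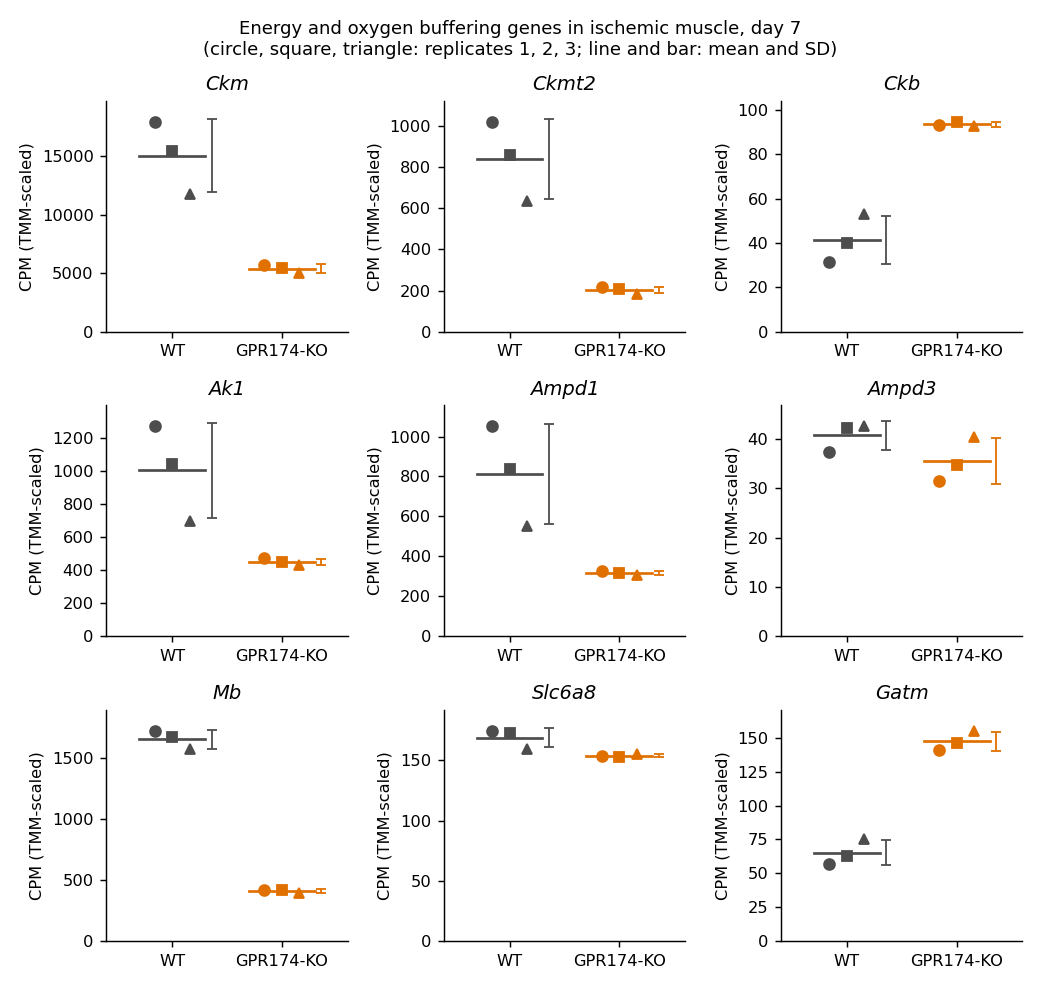
Normalised expression (CPM, TMM-scaled, axes from 0) of each of the 9 genes in the 3 WT libraries (grey) and the 3 GPR174-KO libraries (orange), with the mean as a line and the SD as a bar. The GPR174-KO libraries sit below every WT library for Ckm, Ckmt2, Ak1, Ampd1, Mb and, by a small margin, Slc6a8 and above every WT library for Ckb and Gatm, while for Ampd3 replicates 1 and 2 lie below the WT libraries and replicate 3 lies among them.

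The creatine kinases did not move together. Ckm, the most abundant of the 9 genes, reached 17948, 15431 and 11809 CPM in WT replicates 1, 2 and 3, against 5745, 5429 and 5003 CPM in the GPR174-KO replicates of the same numbers. Every GPR174-KO library was below every WT library, and the WT libraries were spread more widely than the GPR174-KO libraries. Ckm was 2.79-fold lower in GPR174-KO, a log2 fold change of -1.48 with a standard error of 0.18 (95% interval -1.91 to -1.05, adjusted p = 0.00132). Ckmt2 had 1020, 860 and 633 CPM in WT and 218, 206 and 185 CPM in GPR174-KO. The groups were well apart, and again WT replicate 3 was the lowest WT library. Ckmt2 fell 4.12-fold, with a log2 fold change of -2.04, a standard error of 0.18 and an adjusted p of 0.000723. Ckb had 31.4, 40.1 and 53.0 CPM in WT, and 93.1, 94.7 and 92.6 CPM in GPR174-KO. The order of the groups was thus turned round, with WT replicate 3 the highest WT library and still far below the GPR174-KO libraries. Ckb rose 2.25-fold, a log2 fold change of 1.17 (standard error 0.17, adjusted p = 0.00209).

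Per length, the balance of the creatine kinase transcripts can be read within each library, free of the scaling between libraries. In TPM, which corrects for transcript length, Ckm made up 94.7% ± 0.0195 of the summed creatine kinase transcripts in WT and 95.0% ± 0.0625 in GPR174-KO (mean ± SD, n = 3 each). The share of Ckmt2 was 5.11%, 5.02% and 4.83% in the WT libraries and 3.44%, 3.42% and 3.34% in the GPR174-KO libraries. Mitochondrial creatine kinase thus made up less of the total in each GPR174-KO library than in any WT library. The share of Ckb was 0.158%, 0.235% and 0.407% in WT and 1.47%, 1.58% and 1.68% in GPR174-KO. Ckb remained a small part of the total in all 6 libraries. The TPM of Ckm was 411 ± 183 times that of Ckb in WT and 60.4 ± 4.04 times in GPR174-KO, and it was 19.0 ± 0.569 times that of Ckmt2 in WT and 27.9 ± 0.392 times in GPR174-KO. The summed creatine kinase level was 19762 ± 3124 TPM in WT and 9296 ± 328 TPM in GPR174-KO. No test was made of these shares and ratios.

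**Figure D2:**
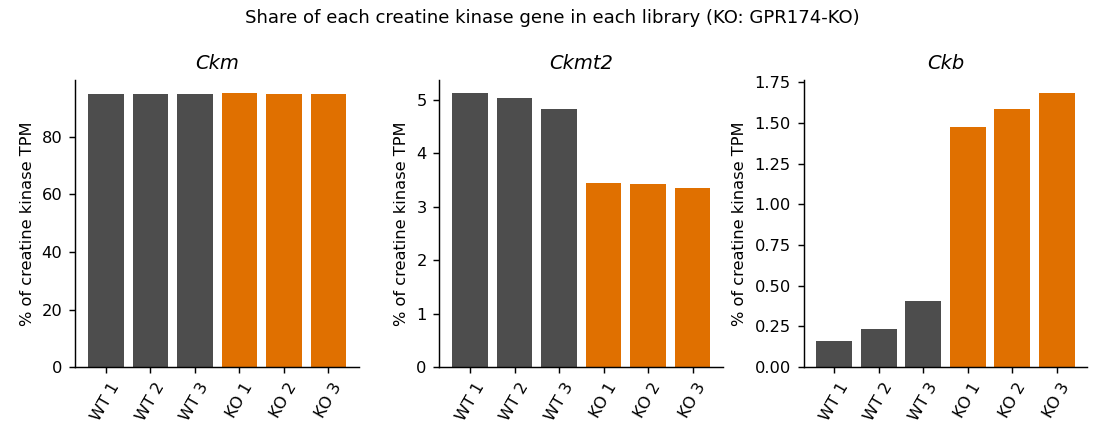
Share of Ckm, Ckmt2 and Ckb in the summed creatine kinase TPM (%, axes from 0, a separate scale for each gene) in each WT library (grey) and GPR174-KO library (orange). Ckmt2 lies between 4.83% and 5.11% in WT and between 3.34% and 3.44% in GPR174-KO, while Ckb is at most 0.407% in WT and at least 1.47% in GPR174-KO.

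Of the creatine supply genes, the synthesis gene rose and the transporter did not pass the test. Gatm, the enzyme of the first step of creatine synthesis, which is best known from kidney and pancreas, had 57.0, 63.1 and 75.1 CPM in WT and 141, 146 and 155 CPM in GPR174-KO. All GPR174-KO libraries were above all WT libraries, and the spread within each group was small beside the gap. Gatm rose 2.27-fold, a log2 fold change of 1.18 (standard error 0.10, adjusted p = 0.000730). Slc6a8, the creatine transporter of the cell membrane, had 175, 173 and 160 CPM in WT and 154, 153 and 155 CPM in GPR174-KO. The groups lay side by side without overlap, with WT replicate 3 close to the GPR174-KO libraries. Its log2 fold change was -0.13 (95% interval -0.27 to -0.003, adjusted p = 0.0770), which did not pass the threshold. Without WT replicate 3 it passed, at -0.17 (adjusted p = 0.0156), and its direction turned with plain total counts, where it was 0.14 (adjusted p = 0.0460) while the median of all genes moved to 0.28. Relative to that median, Slc6a8 stayed below the typical gene. Gamt, which completes creatine synthesis, had a log2 fold change of -0.12 (adjusted p = 0.328) and did not pass.

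Ckb and Gatm are the pair that rose, and markers of some other cell types rose in the same libraries, while 7 of 8 endothelial markers fell. Of 12 macrophage and leukocyte markers, 9 were higher in GPR174-KO and 3 did not pass, and their summed level was between 1306 and 1996 CPM in WT and between 3072 and 3118 CPM in GPR174-KO. Lyz2, a lysozyme of macrophages, had a log2 fold change of 1.00. Of 12 regenerating fibre markers, 9 were higher and 3 did not pass, with summed levels of 7054 to 9277 CPM in WT and 8585 to 10620 CPM in GPR174-KO, which overlap. Of 8 fibroblast markers, 5 were higher and 3 lower, with 13783 to 20723 CPM in WT and 27033 to 29782 CPM in GPR174-KO. The 3 lower were Pdgfra (log2 fold change -0.21), Dcn (-0.57) and Lum (-0.81), and the sum rests mostly on Col1a1, Col3a1 and Postn, which rose. Of all genes tested, 27.0% were higher and 27.6% lower. No marker of these lists was at 0 in all libraries, and their part in the rise of Ckb and Gatm was not tested.

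Of the genes that handle AMP and ADP, Ak1 and Ampd1 fell and Ampd3 did not pass the test. Ak1, the cytosolic adenylate kinase of muscle, had 1271, 1042 and 700 CPM in WT and 471, 450 and 430 CPM in GPR174-KO. Each GPR174-KO library was below WT replicate 3, the lowest WT library. Ak1 fell 2.23-fold, or by 1.16 on the log2 scale with a standard error of 0.20 (adjusted p = 0.00397). With plain total counts its log2 fold change was -0.87 (adjusted p = 0.00496), short of the fold threshold. Ampd1, the AMP deaminase of skeletal muscle, had 1051, 835 and 551 CPM in WT, and 328, 319 and 305 CPM in GPR174-KO. Its WT libraries had the same order as those of Ak1, and the groups did not overlap. Ampd1 fell 2.56-fold, or by 1.36 on the log2 scale with a standard error of 0.22 (adjusted p = 0.00290). Ampd3 had 37.3, 42.2 and 42.5 CPM in WT, and 31.4, 34.6 and 40.5 CPM in GPR174-KO. The highest GPR174-KO library lay among the WT libraries. Its log2 fold change was -0.20 (95% interval -0.44 to 0.05, adjusted p = 0.146), so a fall of that size or a small rise are both within its interval, and without GPR174-KO replicate 3 it passed, at -0.30 (adjusted p = 0.0364). With plain total counts the value of Ampd3 was 0.08 (adjusted p = 0.614). The TPM ratio of Ampd1 to Ampd3 was 48.3, 33.6 and 22.2 in WT and 17.8, 15.6 and 12.7 in GPR174-KO. The ratio was below that of every WT library in all 3 GPR174-KO libraries.

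Myoglobin fell with little spread within either group. Mb had 1722, 1670 and 1570 CPM in WT, and 419, 414 and 393 CPM in GPR174-KO. The gap between the groups was many times the spread in either. Mb fell 4.05-fold, with a log2 fold change of -2.02, a standard error of 0.08 and the lowest adjusted p of the 9 genes (0.000237). As plain counts, Mb was almost level over the WT libraries (27667, 28055 and 27948), in which Ckm went from 288449 and 259262 to 210153. The TPM ratio of Mb to Ckm was 0.134, 0.151 and 0.186 in WT and 0.101, 0.106 and 0.110 in GPR174-KO. Mb shares 64 of its 1492 exon bases in GENCODE M21 with Apol6 on the other strand, and Apol6 had at most 520 counts in any library, against at least 8455 for Mb. Ampd3 likewise shares 195 of 5627 exon bases with Rnf141, whose counts were between 448 and 561. Strand use in the counting is not given in the sources used here, so reads from these shared bases could not be assigned.

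Because fibre transcripts as a whole took a smaller part of the GPR174-KO libraries, the 9 genes were also compared with the summed counts of the 24 mature fibre markers as library size, in the same edgeR test. On this scale the question is whether a gene fell more or less than the fibre genes did together. The median gene of the table then had a log2 fold change of 1.32, with 93.2% of genes higher and 0.688% lower (99 genes). Ckmt2 and Mb were among those 99, and they were the members lower on this scale. Of the 24 markers themselves, 3 were lower on this scale (Myh2 at -1.52, Pvalb at -0.96 and Mybpc2 at -0.70) and 3 were higher. Ckmt2 had 4.43, 4.23 and 3.83 counts per 1000 fibre counts in WT, and 2.63, 2.59 and 2.51 in GPR174-KO. Its log2 fold change relative to fibre genes was -0.69 (standard error 0.13, adjusted p = 0.000615). Mb had 7.47, 8.22 and 9.51 counts per 1000 fibre counts in WT, and 5.04, 5.22 and 5.32 in GPR174-KO. The groups did not overlap for either gene, and WT replicate 3 was the lowest WT library for Ckmt2 but the highest for Mb. The log2 fold change of Mb on this scale was -0.69 (standard error 0.15, adjusted p = 0.00127).

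Ckm, Ak1 and Ampd1 did not differ from the fibre genes by this test. Ckm had 77.9, 75.9 and 71.5 counts per 1000 fibre counts in WT and 69.1, 68.4 and 67.7 in GPR174-KO, with a log2 fold change of -0.13 (95% interval -0.47 to 0.20, adjusted p = 0.390). Its GPR174-KO libraries were below its WT libraries by a margin smaller than the WT spread. The interval for Ak1 was -0.13 to 0.54 around 0.21 (adjusted p = 0.205), and for Ampd1 it was -0.34 to 0.36 around 0.01 (adjusted p = 0.950). These intervals leave room for changes of either sign, and the GPR174-KO libraries of Ak1 (5.67, 5.67 and 5.82 counts per 1000 fibre counts) were just above its highest WT library (5.52). Ampd3 (1.12, adjusted p = 0.000423), Slc6a8 (1.19, adjusted p = 3.74e-05), Ckb (2.45) and Gatm (2.48) were higher relative to the fibre genes, where most genes of the table were. Ampd3 and Slc6a8 lay below the table's median of 1.32 on this scale, and Ckb and Gatm above it. Over 11 further settings of this comparison Ckmt2 ranged from -0.75 to -0.54 and Mb from -0.77 to -0.56, each with an adjusted p under 0.05 in 10 of the 11. The exception was the fit to replicates 1 and 3 alone, with adjusted p of 0.0559 and 0.0577.

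**Figure D3:**
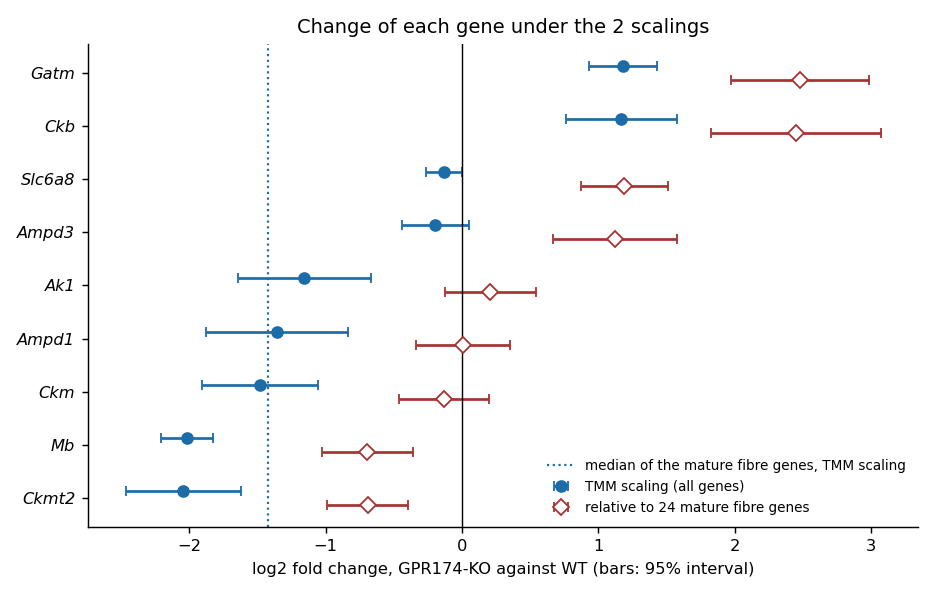
Log2 fold change of each gene, GPR174-KO against WT, with its 95% interval, under TMM scaling (filled circles) and relative to the summed 24 mature fibre genes (open diamonds), with the median of the fibre genes under TMM scaling as a dotted line at -1.42. Under TMM scaling, Ckm, Ampd1 and Ak1 lie at the dotted line within their intervals, and Mb and Ckmt2 lie to its left. Ckb and Gatm lie to the right of 0 under both scalings.

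**Figure D4:**
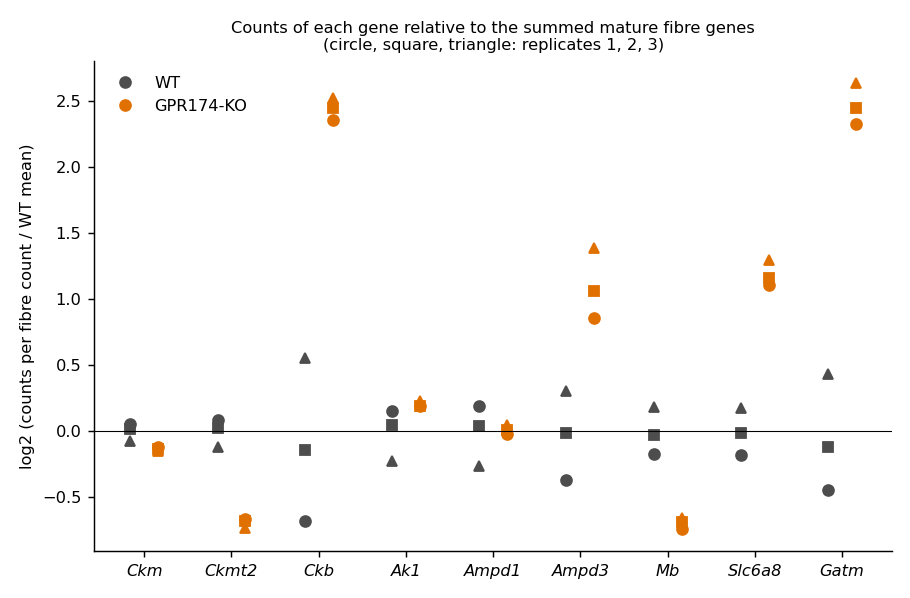
Counts of each gene per mature fibre count, as log2 of the ratio to the WT mean, for the WT libraries (grey) and GPR174-KO libraries (orange). Ckm, Ak1 and Ampd1 lie near 0 in all 6 libraries, Ckmt2 and Mb are below every WT library in GPR174-KO, and Ampd3, Slc6a8, Ckb and Gatm are above.

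Fast and slow fibres differ in these genes, and the markers of fibre type moved unequally. All 10 fast glycolytic markers fell, with a median log2 fold change of -1.45 and summed levels of 78404 to 127420 CPM in WT and 35304 to 38213 CPM in GPR174-KO. Of 10 slow and oxidative markers, 2 rose, 3 fell and 5 did not pass, and their summed level was 1519 to 1996 CPM in WT and 1860 to 2001 CPM in GPR174-KO, which overlap. The slow myosin light chains Myl2 (log2 fold change -4.29, adjusted p = 0.000312) and Myl3 (-4.11, adjusted p = 0.000391) were among the 3 that fell, by more than any of the fast markers, and they fell relative to the mature fibre genes too (-2.93 and -2.75). The other that fell was Myh7 (log2 fold change -1.43, adjusted p = 0.0305), with groups that overlap. The summed level of the slow list rests mostly on more abundant members such as Atp2a2 and Casq2, which did not pass. The myosin gene Myh2, in neither of these lists, had the largest fall of the 24 mature fibre markers (-2.80, adjusted p = 0.000620). Its value relative to the mature fibre genes was -1.52 (adjusted p = 0.000280). With the fast list in place of the 24 markers as library size, Ckm was at 0.01 (adjusted p = 0.967) and the calls for Ckmt2 and Mb were kept. Of 8 endothelial markers, 7 fell and 1 rose, with 959 to 1143 CPM in WT and 623 to 703 CPM in GPR174-KO. Smooth muscle and pericyte markers (3 higher and 2 lower of 8), adipocyte markers (2 higher and 1 lower of 6), and nerve and Schwann cell markers (1 lower of 7 tested) moved in part. These counts stand beside 27.0% of all tested genes higher and 27.6% lower. No erythroid marker of 5 tested passed, with 185 to 281 CPM in WT and 152 to 440 CPM in GPR174-KO, which overlap. The part of these cell types in the results was not tested.

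The order of the 9 genes by TPM was much the same in both groups. In WT it ran Ckm (18723 ± 2956 TPM), Mb (2890 ± 14.8), Ckmt2 (989 ± 184), Ak1 (848 ± 204), Ampd1 (598 ± 156), Slc6a8 (73.6 ± 1.09), Ckb (50.1 ± 15.7), Gatm (48.4 ± 9.34) and Ampd3 (17.8 ± 2.14). The ranges over the WT libraries overlapped for Ckmt2 and Ak1 and for Ak1 and Ampd1, yet within each WT library the order was Ckmt2, Ak1, Ampd1. Ckb and Gatm overlapped as well, and their order differed between WT libraries. In GPR174-KO the order was Ckm (8833 ± 317 TPM), Mb (933 ± 8.40), Ak1 (502 ± 6.02), Ckmt2 (316 ± 15.5), Ampd1 (308 ± 1.13), Ckb (147 ± 4.63), Gatm (143 ± 11.7), Slc6a8 (88.1 ± 3.60) and Ampd3 (20.4 ± 3.44). Ak1 was now above Ckmt2 in every library, and Ckb and Gatm were above Slc6a8, which they had been below in WT. The neighbours that overlapped were Ckmt2 and Ampd1, and Ckb and Gatm, and within each pair the order differed between GPR174-KO libraries.

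The table also divides reads among the transcripts of a gene, which gives estimates only. Ckm, Ckmt2, Ckb and Gatm have a single transcript in the table. Of 5 Ak1 transcripts, NM_001198791.1 held 68.8%, 67.6% and 67.9% of the counts of its gene in WT and 80.2%, 73.3% and 70.6% in GPR174-KO, and NM_001198792.1 held 30.2%, 32.1% and 31.1% and then 18.2%, 25.5% and 26.9%. Each GPR174-KO library was beyond the WT range for both, with GPR174-KO replicate 3 nearest to WT. The Mb transcripts NM_001164047.1 and NM_001164048.1 shared nearly all reads of the gene, and the former went from 44.4%, 44.1% and 45.9% in WT to 48.6%, 47.6% and 46.7% in GPR174-KO. In Ampd1, NM_001033303.2 held between 78.1% and 91.6% in WT and between 82.0% and 89.1% in GPR174-KO, which overlap. Slc6a8 reads fell on NM_001142809.1 for at least 94.9% in each library. Ampd3 was divided among 6 transcripts, with NM_001276301.1 at 50.2%, 39.6% and 28.9% in WT and 23.4%, 22.5% and 20.3% in GPR174-KO. XM_030242002.1 held more than that in every library but WT replicate 1. Its share was 28.4%, 47.7% and 54.8% in WT and 47.9%, 58.3% and 55.4% in GPR174-KO, which overlap. No test was made of these shares.

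Of 47 other genes of the same pathways, 42 were tested, and 11 rose, 19 fell and 12 did not pass. Across the table, 27.0% of genes were higher and 27.6% lower, with 3.45% higher and 4.84% lower past both thresholds. The 7 pathway genes that also passed the fold threshold all fell, and the median log2 fold change of the 42 was 0.09. These lists were chosen with earlier results of the data known. With plain total counts the split turned to 19 higher and 15 lower. Among the other adenylate kinases, the mitochondrial matrix kinase Ak3 fell (log2 fold change -0.34, adjusted p = 0.0103), as did Ak6 (-0.41, adjusted p = 0.0470). With plain total counts neither passed (-0.067 and -0.13), and the call for Ak6 was also lost without WT replicate 1 or 2 (adjusted p = 0.0919 and 0.149) and without GPR174-KO replicate 1, 2 or 3 (0.0563, 0.0719 and 0.0834). A joint list of the purine nucleotide cycle, which recycles the IMP made by AMP deaminase, and of the nucleotidases and other enzymes that break AMP down gave 5 of 12 genes higher, 4 lower and 3 that did not pass. Adssl1, the muscle adenylosuccinate synthase, fell (-0.95, adjusted p = 0.00648), as did adenylosuccinate lyase (Adsl, -0.72, adjusted p = 0.00223) and the cytosolic nucleotidase Nt5c1a (-2.27, adjusted p = 0.0149). The synthase of other tissues, listed as Adss, went the other way (0.63, adjusted p = 0.00102), and it is named here after its value was seen. Nt5c1a had low levels, with 5.72, 3.75 and 1.18 CPM in WT and 0.62, 0.75 and 0.79 CPM in GPR174-KO. Its standard error was 0.58, and relative to the mature fibre genes it did not pass (-0.89, adjusted p = 0.0730). Purine salvage gave 1 higher, 1 lower and 4 that did not pass, with adenosine kinase (Adk) lower (-0.93) and adenine phosphoribosyltransferase (Aprt) higher (0.71), and Impdh1 (0.09) and Impdh2 (0.15) not past the threshold.

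The energy sensor AMPK, which responds to AMP, had 2 subunit genes higher, 4 lower and 1 that did not pass. The muscle-rich subunits Prkag3 (log2 fold change -1.10, adjusted p = 0.00576), Prkaa2 (-1.07, adjusted p = 0.00431) and Prkab2 (-1.01, adjusted p = 0.00546) were those with the largest falls. Of 9 genes tested for the exchange of adenylates and phosphate at the mitochondria, 7 fell and 2 rose. Slc25a4, the ADP and ATP carrier of muscle, fell 2.42-fold (-1.28 on the log2 scale, adjusted p = 0.00112), and the phosphate carrier Slc25a3 (-0.72) and the ATP-Mg carrier Slc25a25 (-1.21) fell as well. Cytoglobin (Cygb), a globin of fibroblasts and other cells, was lower (-0.19, adjusted p = 0.0175), which lies far from the value of Mb, and its sign turned with plain total counts (0.09, adjusted p = 0.290). Relative to the mature fibre genes, 36 of the 42 pathway genes were higher and 6 did not pass, where 93.2% of all genes were higher. The count at an unadjusted p under 0.05 was also 36, and Slc25a4 was at 0.07 (adjusted p = 0.643). Neither creatine kinase Ckmt1 nor Ak7, Ak9, Slc25a31 and Ngb had enough counts to be tested.

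**Figure D5:**
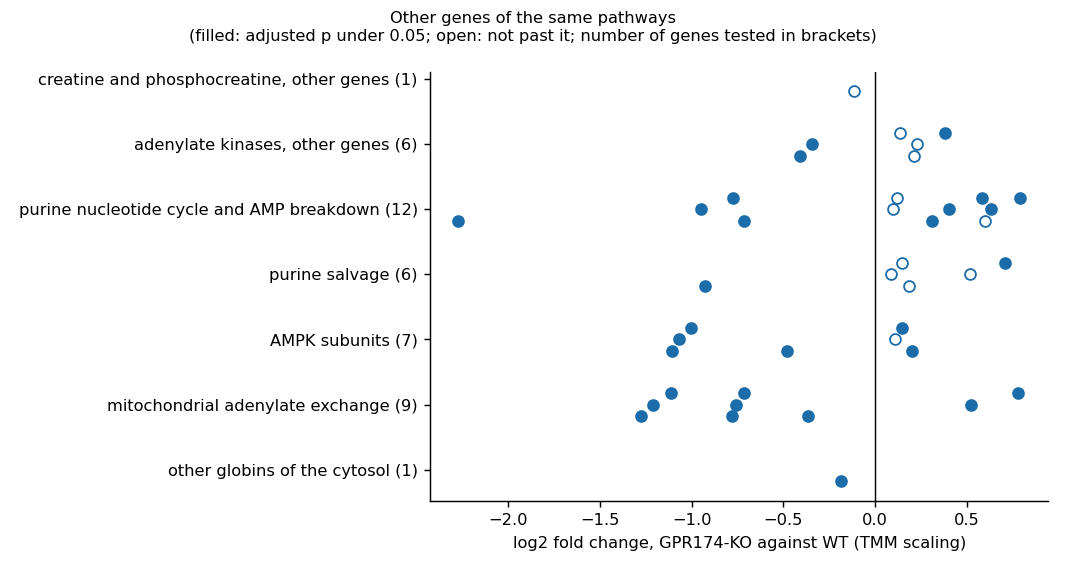
Log2 fold change (GPR174-KO against WT, TMM scaling) of each tested gene in the 7 lists of related genes, the 9 genes themselves left out, with filled points past an adjusted p of 0.05 and open points not past it. Mitochondrial exchange genes lie mostly left of 0, and Nt5c1a, a gene of low counts with a standard error of 0.58, is the farthest point, at -2.27.

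Genes most like each member were named by the root mean square difference of centred log2 CPM over the 6 libraries, among 9963 genes with a mean of at least 10 CPM. The values nearest to Ckm were those of the thin filament genes Tpm1 (difference 0.028), Tnnt3 (0.031) and Tnni2 (0.032). Ak1 was nearest to Pgam2 (0.020), the muscle phosphoglycerate mutase, and Ampd1 lay close to Ppm1j (0.028) and Actn3 (0.042). The genes nearest to Mb and Ckmt2, Lims2 (0.099) and Papln (0.075), were farther away than those nearest to the other members. Clic5 was the next for both (0.101 from Mb and 0.080 from Ckmt2). Ckb was nearest to Timp1 (0.029), Col5a1 (0.032) and Slc37a2 (0.032), and Gatm to Pnmal2 (0.041), Gpr137b (0.051) and Itgax (0.053). Within the 9 genes the closest pairs were Ak1 and Ampd1 (0.099), Ckb and Gatm (0.113), and Ckm and Ampd1 (0.127), while Ckmt2 and Mb were 0.168 apart. All of these values share the same 6 libraries and their scaling, so they are a description of these libraries.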

How the data were processed

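Muscle RNA of 3 WT and 3 GPR174-KO mice was sequenced. The labels name an Illumina kit, whereas the methods name a BGISEQ-500 platform. For each library, the authors deposited expected counts (estimated reads, not normalized) of 58843 RefSeq transcripts. The table the authors deposited also gives FPKM, scaled for length and depth, and TPM. The submitters' processing notes name HISAT2 2.0.4, Bowtie2 2.2.5, RSEM 1.2.12 and GRCm39. Strand use is not given in the sources used here. Reference sequences are on GRCm38.p6, so gene coordinates of the files were not used.

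Expected counts were summed by Entrez gene, rounded and named from the RefSeq table (99.7% matched). edgeR 4.0.16 in R 4.3.3 (TMM, filter on low counts, robust quasi-likelihood test) compared the groups over 14395 genes with Benjamini-Hochberg adjustment and was tested on simulated data. Standard errors are the log2 fold change over the square root of F. No source says that same-numbered samples belong together. P-values measure only the spread between these samples. The depth limits precision to 3 counts, about 0.16 CPM, for counting error only. Alternatives were DESeq2 1.42.0, limma 3.58.1 (voom, and log2(FPKM + 1) or log2(FPKM + 0.1) keeping genes at FPKM 1 or more in 3 libraries), other scalings and filters, a replicate block, and left-out libraries. Those on fibre scaling were chosen after seeing the data. Members, lists and tests were chosen with earlier results of these data known. Named genes were the 9 members, 2 genes of each list by level and 2 by change, and the 3 most alike. Levels between genes are in TPM. Authors' group means were not used. Some genes that this rule names are not reported here.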

Additional observations from a re-analysis of the deposited data

How the results depend on the processing

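The calls on the members changed most with the scaling and with the fit to 2 libraries per group. Relative to the mature fibre genes, 4 members passed both thresholds, 13518 and 10786 genes of the table passed the test and both thresholds, and the median of the fibre markers was -0.033. On that scale the sign turned for Ak1 (0.21), Ampd1 (0.010), Ampd3 (1.12), Slc6a8 (1.19), Gamt (1.22), Ak3 (0.99), Ak6 (0.92), Adssl1 (0.41), Adsl (0.62), Adk (0.42), Prkag3 (0.26), Prkab2 (0.36), Prkaa2 (0.29), Slc25a4 (0.066), Slc25a3 (0.62), Slc25a25 (0.18) and Cygb (1.13), which follows from its construction, since the median of all genes moves to 1.32. Ckm turned with the fast list (0.010), and Ampd1 ranged from -0.11 to 0.11 as 1 library was left out, below 0 without WT replicate 3 and, at -0.0070, without GPR174-KO replicate 3. With total counts Ampd3 (0.076), Slc6a8 (0.14), Gamt (0.16) and Cygb (0.088) turned, and 7303 genes of the table were higher and 2010 lower, against 3891 and 3972 with TMM. With log2(FPKM + 1) the values were 0.067, 0.14, 0.16 and 0.086, 645 genes passed both thresholds, and the fibre median was -1.08. With log2(FPKM + 0.1) they were 0.073, 0.14, 0.16 and 0.088, and the fibre median was -1.08. With total counts and both FPKM fits 6 members passed both thresholds, with Ak1 at -0.87, -0.84 and -0.84. For these, the cause was not tested.

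With replicates 1 and 3 alone, edgeR called 0 members (7 at an unadjusted p under 0.05, with or without the fold threshold), 0 genes of the table (5026, or 1049 past the fold threshold), 0 pathway genes (22) and 0 members lower relative to fibre genes (2). This fit has fewer samples, and its folds for the 7 members stayed close to those of the full fit, which a replicate 2 lying between the others would also give. Leaving out replicate 2 of 1 group kept 7 members called, but replicate 2 of the other group stayed in. These fits therefore cannot decide whether replicate 2 is independent. Leaving out 1 library at a time, the members called ranged from 7 to 8 and past both thresholds from 6 to 7, genes of the table from 5459 to 9166 and past both thresholds from 924 to 1828, the last without WT replicate 3 against 1193 with all libraries, pathway genes from 21 to 36, and the fibre median from -1.53 to -1.21. Relative to fibre genes, 2 members stayed lower and 4 higher in each. Impdh1 ranged from -0.0057, without WT replicate 1, to 0.23. The replicate block called 7 members and 6809 genes. Same-numbered samples did not deviate together (correlations -0.026, -0.011 and -0.037), and the block changed no member's call. DESeq2, limma voom, upper-quartile factors and other filters each called the 7 members. Each of the 9 genes had at least 504 counts in every library, far above the 3 taken as detectable. The part of counting error in their spread was not tested, and the number of mice limits all 9.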
